A study of Mus musculus with 20 samples.

Results

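Antiviral interferon-stimulated genes encode the proteins with which a cell resists viral infection after it has sensed interferon. The 51 genes described here were given by symbol as a list of IFIT, OAS, MX, PARP, SLFN, RIG-I-like and related genes. The rule uses no measured value, but the genes were chosen with earlier results of these data known. All 51 were found among the 43629 genes of the counts table, the RIG-I gene under its older symbol Ddx58. They were divided by family into IFIT (4 genes), OAS (5), MX (2), cytoplasmic RNA sensors (5), ISG15 and TRIM genes (5), PARP genes with Dtx3l (5), SLFN genes with Samd9l (4), IFI200 (3), IFI27 (2), APOL9 (2), nucleotide and RNA effectors (3) and 11 others.

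Type I interferons act through the receptor subunits IFNAR1 and IFNAR2, and the kinases bound to them switch on a complex with STAT2 and IRF9 that binds the interferon-stimulated response element (ISRE) of target promoters. Type II interferon, interferon gamma, acts through its own receptor and the gamma-activated site (GAS), and many of the genes respond to both types. In the central nervous system glia, infiltrating leukocytes and neurons can all respond to interferon.

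The libraries were made from nuclei of mouse spinal cord that had been sorted by flow cytometry on NeuN, a protein of neuronal nuclei. They form 4 groups of 5 libraries, namely NeuN-positive and NeuN-negative nuclei of healthy mice and NeuN-positive and NeuN-negative nuclei of mice with experimental autoimmune encephalomyelitis (EAE), a model of multiple sclerosis, taken at day 15 after active immunization. Both conditions went through the same sort, and the healthy groups have no day in the labels. The sources used here do not give strain, age, sex, immunogen, any control injection or any pooling of animals. Nothing in the labels says that libraries of a group came from separate mice, so p-values measure the spread between these libraries, which may be technical.

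Library totals ran from 3149209 counts in an EAE NeuN-negative library to 37689267 in a healthy NeuN-negative one. Summed over 12 neuronal markers, the level was 24173 to 28468 CPM (read counts scaled to library size) in healthy NeuN-positive and 18761 to 31262 in EAE NeuN-positive libraries, against 1502 to 4263 and 907 to 2955 in the NeuN-negative ones. The NeuN-positive sort was not free of other cells' RNA. The summed level of 10 oligodendrocyte markers was 3936 to 44247 CPM in healthy and 11235 to 92629 in EAE NeuN-positive libraries, and 39958 to 66062 and 32884 to 94585 in the NeuN-negative ones. In EAE 2 of the 10 were called higher in NeuN-positive and 5 lower in NeuN-negative nuclei. EAE NeuN-positive library 2, with the highest oligodendrocyte sum of its group, had the lowest neuronal sum, 18761 CPM. The summed level of 12 monocyte and macrophage markers was 9.25 to 32.9 CPM in healthy NeuN-positive, 371 to 1882 in EAE NeuN-positive, 54.3 to 115 in healthy NeuN-negative and 691 to 2864 in EAE NeuN-negative libraries, and 0 of the 12 were at 0 throughout any group. Mitochondrially encoded transcripts took 0.197 to 3% of counts in healthy and 1.08 to 9.35% in EAE NeuN-positive libraries, and 0.367 to 4.51% and 2.18 to 14.6% in the NeuN-negative ones. Libraries of number 3 stood apart in EAE: the NeuN-positive one held the highest value of its group for 31 of the 51 genes, and the NeuN-negative one for 39.

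The promoters of some of these genes are shown first, because ISRE matches were found before the start of a larger share of the listed genes than of genes at large. The 250 bases before the annotated start were searched in the RefSeq promoters of build GRCm38.p6, which had an entry for 38 of the 51 genes. The ISRE motif was GAAANNGAAA on either strand (TTTCNNTTTC on the other), with overlapping matches counted. It occurred in 16 of the 38 promoters (42.1%), against 936 of 27025 genes with a promoter entry (3.46%), and 9 of the 38 held 2 or more matches, against 0.211% of all. The GAS motif TTCNNNGAA occurred in 5 of the 38 (13.2%), against 8.13% of all. The windows below, each with up to 30 bases on either side, are those of the genes on which the results turn, written 5′ to 3′ on the strand of the gene, with the ISRE matches in capitals.
Ifit1, chr19:34640755-34640843, plus strand: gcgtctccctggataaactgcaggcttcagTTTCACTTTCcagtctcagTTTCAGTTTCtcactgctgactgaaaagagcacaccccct
Ifit3, chr19:34583343-34583446, plus strand: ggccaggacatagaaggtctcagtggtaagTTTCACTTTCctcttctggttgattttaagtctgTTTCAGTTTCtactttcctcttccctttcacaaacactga
Isg15, chr4:156200845-156200926, minus strand: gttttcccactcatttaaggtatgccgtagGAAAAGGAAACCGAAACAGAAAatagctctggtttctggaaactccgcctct
Bst2, chr8:71537557-71537632, minus strand: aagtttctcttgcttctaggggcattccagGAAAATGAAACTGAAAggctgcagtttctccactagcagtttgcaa
Oas3, chr5:120777695-120777764, minus strand: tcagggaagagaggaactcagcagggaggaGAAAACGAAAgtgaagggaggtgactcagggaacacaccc
Rsad2, chr12:26456533-26456602, minus strand: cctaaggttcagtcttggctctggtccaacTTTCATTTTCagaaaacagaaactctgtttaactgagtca
Ifit1 and Ifit3 share the pair of TTTCACTTTC and TTTCAGTTTC, and the Ifit3b window (chr19:34607739-34607842) is identical to that of Ifit3 over its 104 bases. Isg15 and Bst2 hold overlapping matches, 3 in Isg15 and 2 in Bst2. The matches in Ifit1 began 104 and 85 bases before the start, those in Isg15 78, 72 and 66 bases before it. The windows of Irf7, Oasl2, Cmpk2, Ifit2 and Xaf1 held 0 matches, which says only that these letters are not in them.

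In NeuN-positive nuclei, 40 of the 48 genes tested were higher in EAE than in healthy mice and 0 were lower (edgeR's quasi-likelihood test, Benjamini-Hochberg adjusted p under 0.05 over all genes). Of all 16675 genes tested in this comparison 6.55% were called higher and 3.68% lower. The median log2 fold change of the 48 was 2.86, with a range from -0.72 to 6.13, against -0.03 over all genes. In NeuN-negative nuclei, 45 of 50 were higher and 0 lower, where 15.1% of all 17604 genes were called higher and 12.6% lower, and the median was 2.73, with a range from -0.53 to 6.29, against 0.05. Higher in both sorts were 38 genes. Every EAE library lay above every healthy library for 37 of the 51 genes in NeuN-positive and for 33 in NeuN-negative nuclei, against 5.42% and 6.50% of all genes tested. Fold changes below are fitted log2 values with standard errors (SE), levels are CPM with SD over 5 libraries, and p-values come from this test.

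In the same EAE libraries, 11 of 11 tested monocyte and macrophage markers (12 listed, Adgre1 not tested) were higher than in healthy NeuN-positive nuclei, as were 7 of 7 tested T cell markers, 7 of 8 neutrophil markers, 3 of 9 microglia markers and 0 of 3 B cell markers. For NeuN-negative nuclei the counts were 12 of 12, 12 of 12, 8 of 9, 2 of 10 with 1 lower, and 5 of 6. Summed T cell markers were 6.29 to 14.1 CPM in healthy and 26.7 to 94 in EAE NeuN-positive libraries, and 4.33 to 13.6 and 114 to 357 in NeuN-negative ones. Summed microglia markers were 27.2 to 53.4 and 107 to 187 CPM in NeuN-positive, and 565 to 733 and 326 to 1397 in NeuN-negative libraries. The part of these cells in the rise of the antiviral genes was not tested. In bulk nuclei, more cells that express a gene and more of its RNA per cell cannot be told apart.

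**Figure D1:**
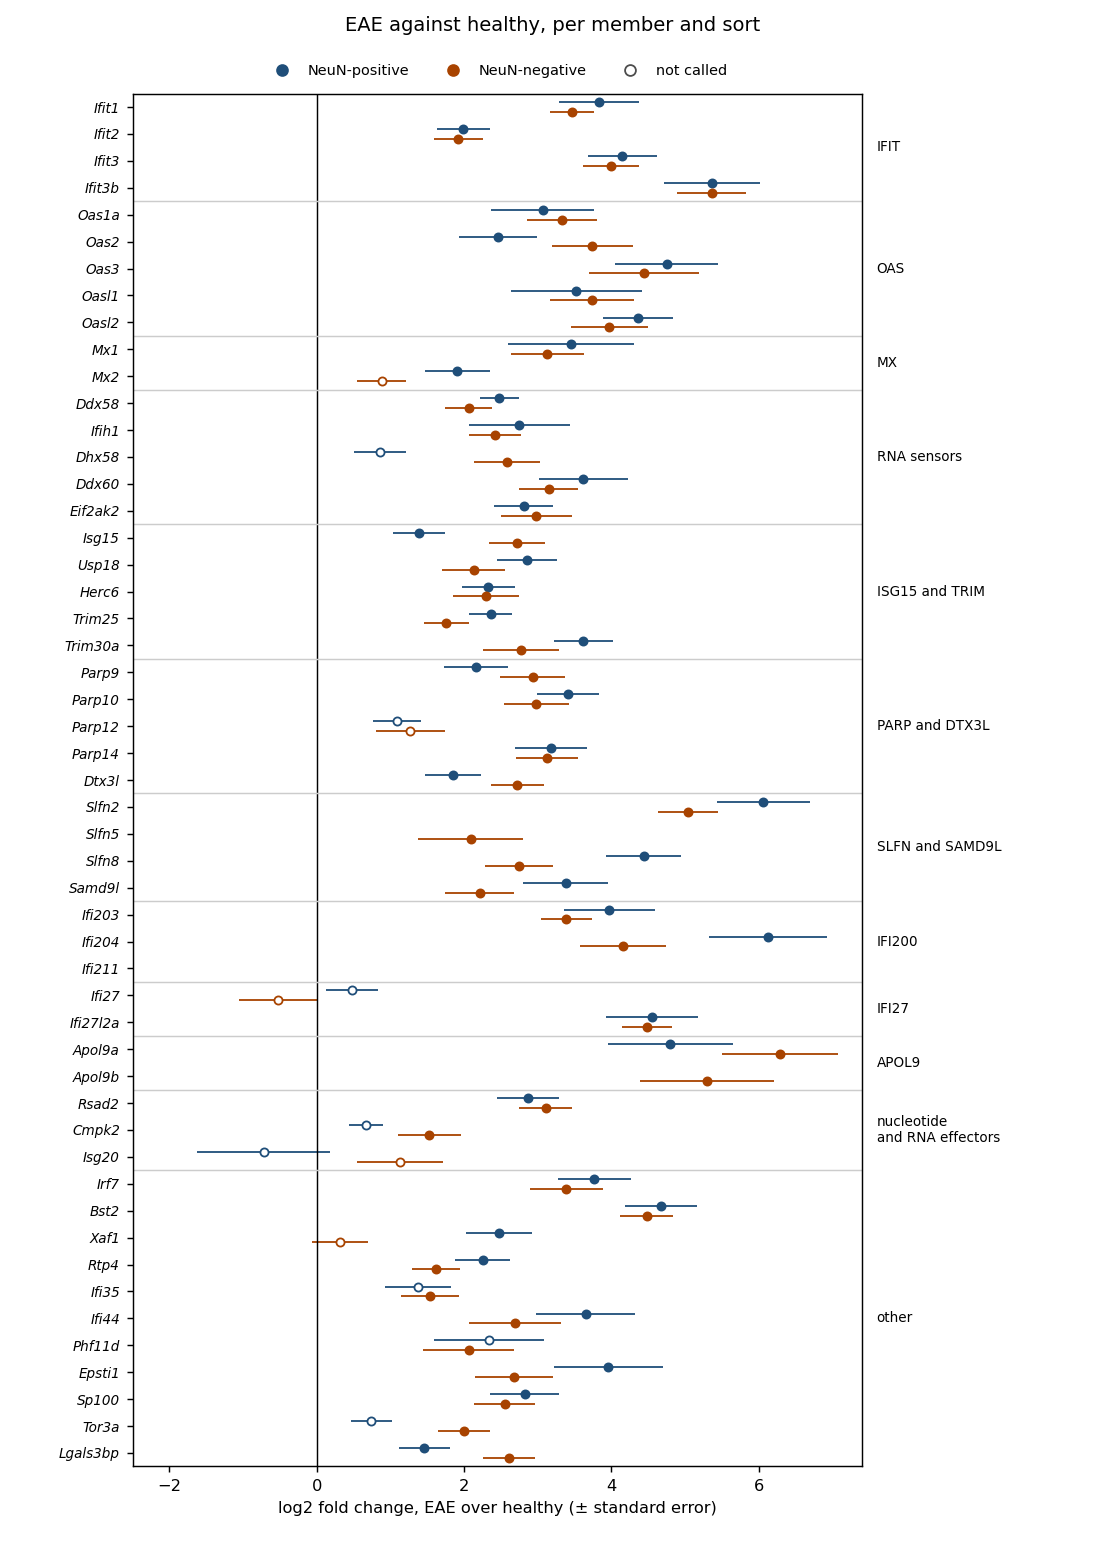
Log2 fold change of each gene in EAE over healthy mice (x axis, with its standard error) in NeuN-positive (blue) and NeuN-negative nuclei (orange), grouped by family. Open points were not called, and genes not tested in a sort have no point. All but Isg20 in NeuN-positive (-0.72) and Ifi27 in NeuN-negative nuclei (-0.53) lie right of 0.

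Of the IFIT proteins, IFIT1 binds viral RNA that lacks the host's cap methylation and blocks its translation. All 4 IFIT genes, neighbours on chromosome 19, were higher in EAE in both sorts. Ifit3, the most abundant of the family, was at 6.15, 5.49, 5.94, 9.9 and 3.66 CPM in the healthy NeuN-positive libraries 1 to 5 and at 43.3, 159, 124, 135 and 41.6 in the EAE ones. The NeuN-negative libraries were at 15.8, 10.9, 16.6, 22 and 9.49 CPM in healthy and at 200, 187, 289, 140 and 149 in EAE libraries. The healthy and EAE libraries did not overlap in either sort. Its log2 fold change was 4.15 (SE 0.47, adjusted p = 8.2e-05) in NeuN-positive and 3.99 (SE 0.38, adjusted p = 2.75e-06) in NeuN-negative nuclei.

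Ifit3b, a near copy of Ifit3, had one of the 3 largest rises in either sort, 5.36 (SE 0.65, adjusted p = 0.00016) in NeuN-positive and 5.36 (SE 0.47, adjusted p = 1.52e-06) in NeuN-negative nuclei. Of the 50-base words of their annotated exons, 51.2% of those of Ifit3 and 45% of those of Ifit3b also occur in another gene, so the division of reads between them is uncertain. Their levels ran in different orders over the EAE libraries. In NeuN-negative library 3, Ifit3 was highest of its group at 289 CPM while Ifit3b was lowest at 31.7. Ifit2 had the smallest rise of the family, 1.99 (SE 0.36, adjusted p = 0.00274) and 1.92 (SE 0.33, adjusted p = 0.000648).

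Ifit1 was among the few genes with no call between the sorts in either condition. It was at 8.78, 7, 12.5, 8.07 and 1.93 CPM in healthy and at 83.4, 23.3, 177, 161 and 82.8 in EAE NeuN-positive libraries. The NeuN-negative libraries were at 9.59, 6.64, 6.18, 11.6 and 7.68 CPM in healthy and 94.6, 59.6, 98.8, 45 and 73.3 in EAE libraries. EAE libraries lay above healthy ones in both sorts, and the EAE libraries of the 2 sorts overlapped. The rise was 3.83 (SE 0.54, adjusted p = 0.000504) in NeuN-positive and 3.46 (SE 0.30, adjusted p = 1.52e-06) in NeuN-negative nuclei. The EAE NeuN-positive library lowest in Ifit1, number 2 at 23.3 CPM, was the one highest in summed monocyte and macrophage markers at 1882 CPM. That library also had the lowest total (7072200 counts) and the highest mitochondrial share (9.35%) of its group. It held the lowest value for 18 of the 51 genes and the highest for 11. The relation of Ifit1 to the markers was not tested.

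**Figure D2:**
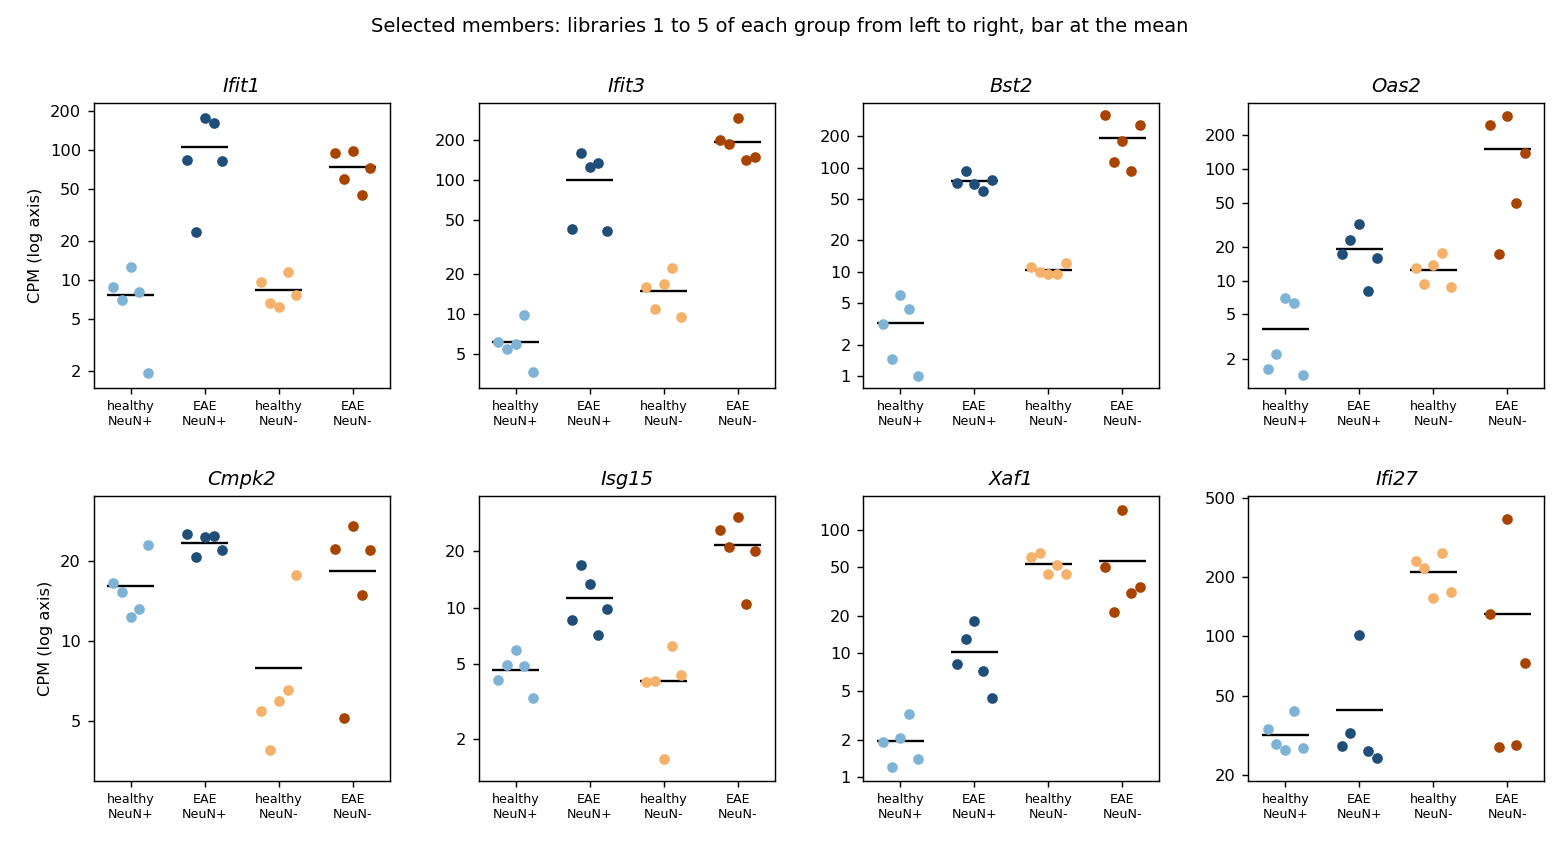
CPM (log axis) of 8 genes in the 5 libraries of each group, in the order of their numbers, with a bar at the mean. Ifit1 reached 177 CPM in EAE NeuN-positive against 98.8 in EAE NeuN-negative libraries, whereas Oas2, Bst2 and Xaf1 were higher in NeuN-negative nuclei, and Ifi27 was highest in both EAE groups in library 3.

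The OAS enzymes make 2′-5′ oligoadenylate, which activates RNase L, and the OAS-like proteins are their relatives. All 5 rose in both sorts. Oasl2 was at 5.08, 2.1, 4.45, 4.91 and 2.43 CPM in healthy and 31.2, 43.1, 134, 118 and 41.8 in EAE NeuN-positive libraries, and at 16, 10.4, 11.3, 18.3 and 11.2 CPM in healthy and 230, 30.3, 444, 70.2 and 154 in EAE NeuN-negative ones. No EAE library reached down to the healthy range, and libraries 1, 3 and 5 were the high ones among EAE NeuN-negative. The rise of Oasl2 was 4.36 (SE 0.47, adjusted p = 5.99e-05) and 3.97 (SE 0.52, adjusted p = 6.05e-05).

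Among Oas1a, Oas2 and Oas3 the largest NeuN-positive rise was that of Oas3, from 0.1 ± 0.081 to 2.78 ± 1.71 CPM in NeuN-positive and from 1.25 ± 1.58 to 20.7 ± 4.94 in NeuN-negative nuclei (SD, n = 5). The healthy NeuN-positive group held only 10 Oas3 counts in all, so its fold change of 4.75 (SE 0.70, adjusted p = 0.000651) rests on few reads. Oas2 spread most over the EAE NeuN-negative libraries, from 17.3 CPM in number 2 to 299 in number 3, a 17.2-fold range, against a 1.77-fold range of Oas3 in the same libraries. Oas1a shares 57.6% of its 50-base words with neighbouring Oas1 genes and is uncertain. The NeuN-positive rise of Oasl1, 3.52 (SE 0.89, adjusted p = 0.0235), lost its call when EAE library 2 or 4 or healthy library 1 or 2 was left out.

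The MX proteins are dynamin-like GTPases that trap viral nucleocapsids. Mx1 rose by 3.45 (SE 0.85, adjusted p = 0.021) in NeuN-positive and 3.13 (SE 0.50, adjusted p = 0.000353) in NeuN-negative nuclei, the former lost without healthy library 1 or 2. Mx2, annotated as a polymorphic pseudogene in the reference strain, was at 2.89, 2.21, 6.14, 6.25 and 2.08 CPM in healthy and 12.1, 6.71, 18.8, 20.6 and 11.8 in EAE NeuN-positive libraries, which did not overlap. The NeuN-negative libraries were at 29.5, 26.8, 25.6, 27.6 and 17.8 CPM in healthy and 26.8, 27.9, 78.5, 25.4 and 34.8 in EAE libraries. These overlapped, with number 3 far above the rest. The rise of Mx2 was 1.91 (SE 0.44, adjusted p = 0.0141) in NeuN-positive nuclei, and the difference of 0.88 (SE 0.33, adjusted p = 0.0525) in NeuN-negative nuclei missed the threshold, which it passed at 0.98 (adjusted p = 0.0442) without EAE library 1.

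RIG-I (Ddx58) and MDA5 (Ifih1) sense viral RNA, LGP2 (Dhx58) modulates them, and PKR (Eif2ak2) halts translation on double-stranded RNA. Of the 5 sensor genes, 4 rose in NeuN-positive and 5 in NeuN-negative nuclei. Eif2ak2 was at 4.23, 7.31, 12.7, 8.29 and 9.64 CPM in healthy and 51.7, 18.2, 53.1, 76.8 and 78.5 in EAE NeuN-positive libraries, and at 8.84, 12.4, 27.4, 21.1 and 11.2 CPM in healthy and 152, 35.2, 116, 41.3 and 205 in EAE NeuN-negative ones. Library 2 was the lowest EAE library in both sorts, still above every healthy library of its sort. The rise of Eif2ak2 was 2.81 (SE 0.40, adjusted p = 0.000466) and 2.98 (SE 0.48, adjusted p = 0.000383). Ddx58 had the tightest NeuN-positive rise of the sensors, from 3.73 ± 0.504 to 19.2 ± 2.96 CPM (SD, n = 5; log2 fold change 2.48, SE 0.26, adjusted p = 5.67e-05). Ifih1 rose by 2.75 (SE 0.69, adjusted p = 0.0235) there, a call lost without EAE library 2 or healthy library 1 or 2.

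Dhx58 was called in NeuN-negative nuclei and missed the threshold in NeuN-positive ones. The NeuN-negative rise was 2.58 (SE 0.45, adjusted p = 0.000648), from 7.85 ± 1.94 to 40.8 ± 31.0 CPM, while in NeuN-positive nuclei 7.81 ± 1.46 against 13.5 ± 6.35 CPM (SD, n = 5) gave 0.86 (SE 0.35, adjusted p = 0.126). The difference between the sorts, NeuN-positive minus NeuN-negative, was -1.61 (SE 0.60, adjusted p = 0.146). With the library number as a block it was -1.43 with adjusted p = 0.024. EAE NeuN-positive library 2 was the low one at 4.03 CPM, and without it Dhx58 was called higher in NeuN-positive nuclei.

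ISG15 is a ubiquitin-like modifier, USP18 removes it and damps receptor signalling, HERC6 attaches it in the mouse, and TRIM25 and TRIM30a are ubiquitin ligases of the innate response. All 5 were called higher in both sorts. Trim25 was at 4.6, 2.86, 3.86, 4.49 and 2.82 CPM in healthy and 21.2, 14.3, 21.8, 18.2 and 14 in EAE NeuN-positive libraries, and at 31.4, 26.8, 23.1, 29.6 and 28.3 CPM in healthy and 126, 37.4, 111, 38 and 84.8 in EAE NeuN-negative ones. EAE and healthy libraries did not overlap, and libraries 2 and 4 were the low ones in EAE NeuN-negative. The rise of Trim25 was 2.36 (SE 0.29, adjusted p = 0.00016) and 1.76 (SE 0.30, adjusted p = 0.000583).

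Isg15, with 3 overlapping ISRE matches in its promoter window, had a small rise in NeuN-positive nuclei. Its libraries were at 4.12, 4.93, 5.94, 4.91 and 3.32 CPM in healthy and 8.58, 16.9, 13.4, 7.19 and 9.87 in EAE mice, a log2 fold change of 1.39 (SE 0.35, adjusted p = 0.0238). The NeuN-negative level went from 4.05, 4.09, 1.57, 6.29 and 4.38 CPM to 25.9, 20.9, 30, 10.4 and 20, a log2 fold change of 2.72 (SE 0.38, adjusted p = 0.000112). The libraries did not overlap in either sort. The NeuN-positive call was lost in 6 of 18 alternatives, among them the omission of healthy library 1, 2 or 4, and the difference between the sorts, -1.17 (SE 0.52, adjusted p = 0.223), was not called.

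PARP9, PARP10, PARP12 and PARP14 are ADP-ribosyltransferase family proteins, and DTX3L is the ubiquitin ligase that pairs with PARP9. Of the 5 genes 4 rose in each sort. Parp10 was the highest of them in EAE NeuN-positive nuclei and rose from 10.5 ± 3.56 to 106 ± 64.5 CPM there (SD, n = 5; log2 fold change 3.41, SE 0.42, adjusted p = 0.00018). It overlaps Plec on the same strand. Parp9 and Dtx3l, which overlap at their starts on opposite strands, rose by 2.16 (SE 0.43, adjusted p = 0.00554) and 1.85 (SE 0.38, adjusted p = 0.00701) in NeuN-positive, and by 2.93 (SE 0.44, adjusted p = 0.000173) and 2.72 (SE 0.36, adjusted p = 6.14e-05) in NeuN-negative nuclei.

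Parp12, the family's highest gene by mean log2 CPM over the 20 libraries, was the exception. It was at 30.5, 30.2, 42, 39 and 26.6 CPM in healthy and 43.6, 31.6, 110, 109 and 46.6 in EAE NeuN-positive libraries. Among NeuN-negative libraries it was at 56, 53.6, 60.1, 62.4 and 51.2 CPM in healthy and 164, 13.5, 267, 55.3 and 104 in EAE libraries. EAE library 2 fell within the healthy range in NeuN-positive nuclei and below it in NeuN-negative ones, a 19.7-fold range within that EAE group. The log2 fold changes of 1.09 (SE 0.33, adjusted p = 0.0524) and 1.27 (SE 0.47, adjusted p = 0.0523) missed the threshold. Both passed it without EAE library 2, at 1.24 (adjusted p = 0.0416) and 1.57 (adjusted p = 0.00442), and the NeuN-positive one also without healthy library 3, at 1.22 (adjusted p = 0.0337).

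Schlafen proteins restrict viral replication and bind or cut transfer RNA, and SAMD9L is an interferon-induced restriction factor. Slfn2 was at 1.12, 0.448, 0.198, 1.83 and 0.193 CPM in healthy and 27.1, 79.5, 50.4, 30.8 and 36.8 in EAE NeuN-positive libraries, and at 7.29, 5.06, 10.2, 8.09 and 4.46 CPM in healthy and 319, 99.6, 204, 126 and 226 in EAE NeuN-negative ones. The groups lay far apart in both sorts. Its rise of 6.06 (SE 0.63, adjusted p = 4.83e-05) was among the 3 largest in NeuN-positive nuclei, and in NeuN-negative nuclei it was 5.04 (SE 0.41, adjusted p = 1.34e-06). Slfn2 was highest in EAE library 2 in NeuN-positive and in EAE library 1 in NeuN-negative nuclei, the same libraries that were highest in summed monocyte and macrophage markers (1882 and 2864 CPM). The relation of Slfn2 to the markers was not tested.

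Slfn8 rose by 4.44 (SE 0.51, adjusted p = 9.74e-05) in NeuN-positive and 2.75 (SE 0.46, adjusted p = 0.000472) in NeuN-negative nuclei, and Samd9l by 3.38 (SE 0.58, adjusted p = 0.0019) and 2.21 (SE 0.47, adjusted p = 0.00319). For Slfn8 the difference between the sorts was 1.75 (SE 0.66, adjusted p = 0.146), and with the library number as a block 2.0 (adjusted p = 0.0221). Slfn5 did not pass the count filter in NeuN-positive nuclei, where it was at 0.256 ± 0.201 CPM in healthy and 0.856 ± 0.808 in EAE libraries (SD, n = 5). In NeuN-negative nuclei it rose by 2.09 (SE 0.71, adjusted p = 0.0379), a call lost when any of healthy libraries 1 to 4 or EAE library 4 or 5 was left out.

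IFI200 proteins bind DNA and take part in the sensing of it. Ifi203 was at 1.23, 0.103, 0.891, 0.562 and 0.347 CPM in healthy and 6.36, 8.5, 19, 4.4 and 7.43 in EAE NeuN-positive libraries, and at 7.09, 4.9, 5.09, 8.32 and 4.89 CPM in healthy and 75.6, 22.7, 85.3, 38.4 and 44.4 in EAE NeuN-negative ones. No healthy library overlapped an EAE library of its sort. Ifi203 rose by 3.97 (SE 0.62, adjusted p = 0.00103) and 3.39 (SE 0.34, adjusted p = 5.29e-06). Ifi204 had the largest fitted change in NeuN-positive nuclei, 6.13 (SE 0.80, adjusted p = 0.000261), from only 7 counts in the whole healthy group (0.0579 ± 0.0554 CPM) to 4.89 ± 3.95 CPM, so the size depends on the prior count of the fit. In NeuN-negative nuclei it rose by 4.16 (SE 0.58, adjusted p = 0.000104). Ifi211 was tested in neither, with 2 counts in healthy NeuN-positive, 51 in EAE NeuN-positive, 3 in healthy NeuN-negative and 276 in EAE NeuN-negative nuclei, and 72.8% of its 50-base words occur in other genes.

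The pair of IFI27 genes encode small membrane proteins and lie next to each other on chromosome 12. Ifi27l2a rose by 4.55 (SE 0.63, adjusted p = 0.000398) in NeuN-positive and 4.48 (SE 0.34, adjusted p = 9.49e-07) in NeuN-negative nuclei. Ifi27 was already the most abundant of the 51 genes per kilobase in healthy nuclei of both sorts, at 21.8 and 143 CPM per kilobase. It was at 34.2, 28.8, 26.8, 42.2 and 27.5 CPM in healthy and 28, 32.5, 102, 26.4 and 24.4 in EAE NeuN-positive libraries, and at 241, 222, 157, 262 and 168 CPM in healthy and 129, 27.9, 392, 28.4 and 73.6 in EAE NeuN-negative ones. Only EAE library 3 stood above the healthy range, in both sorts, and the other 4 EAE NeuN-negative libraries stood below it.

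The log2 fold changes of Ifi27, 0.48 (SE 0.35, adjusted p = 0.381) and -0.53 (SE 0.53, adjusted p = 0.466), were not called. Without both EAE libraries of number 3, an alternative chosen after seeing these values, the NeuN-negative change was -1.47 and was called (adjusted p = 0.0125). Summed astrocyte markers were 865 to 3146 CPM in EAE and 1868 to 4370 in healthy NeuN-negative libraries, and summed endothelial markers 243 to 1173 and 346 to 650. In EAE NeuN-negative library 3 these were 1586 and 386 CPM. Their part in the levels of Ifi27 was not tested.

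**Figure D3:**
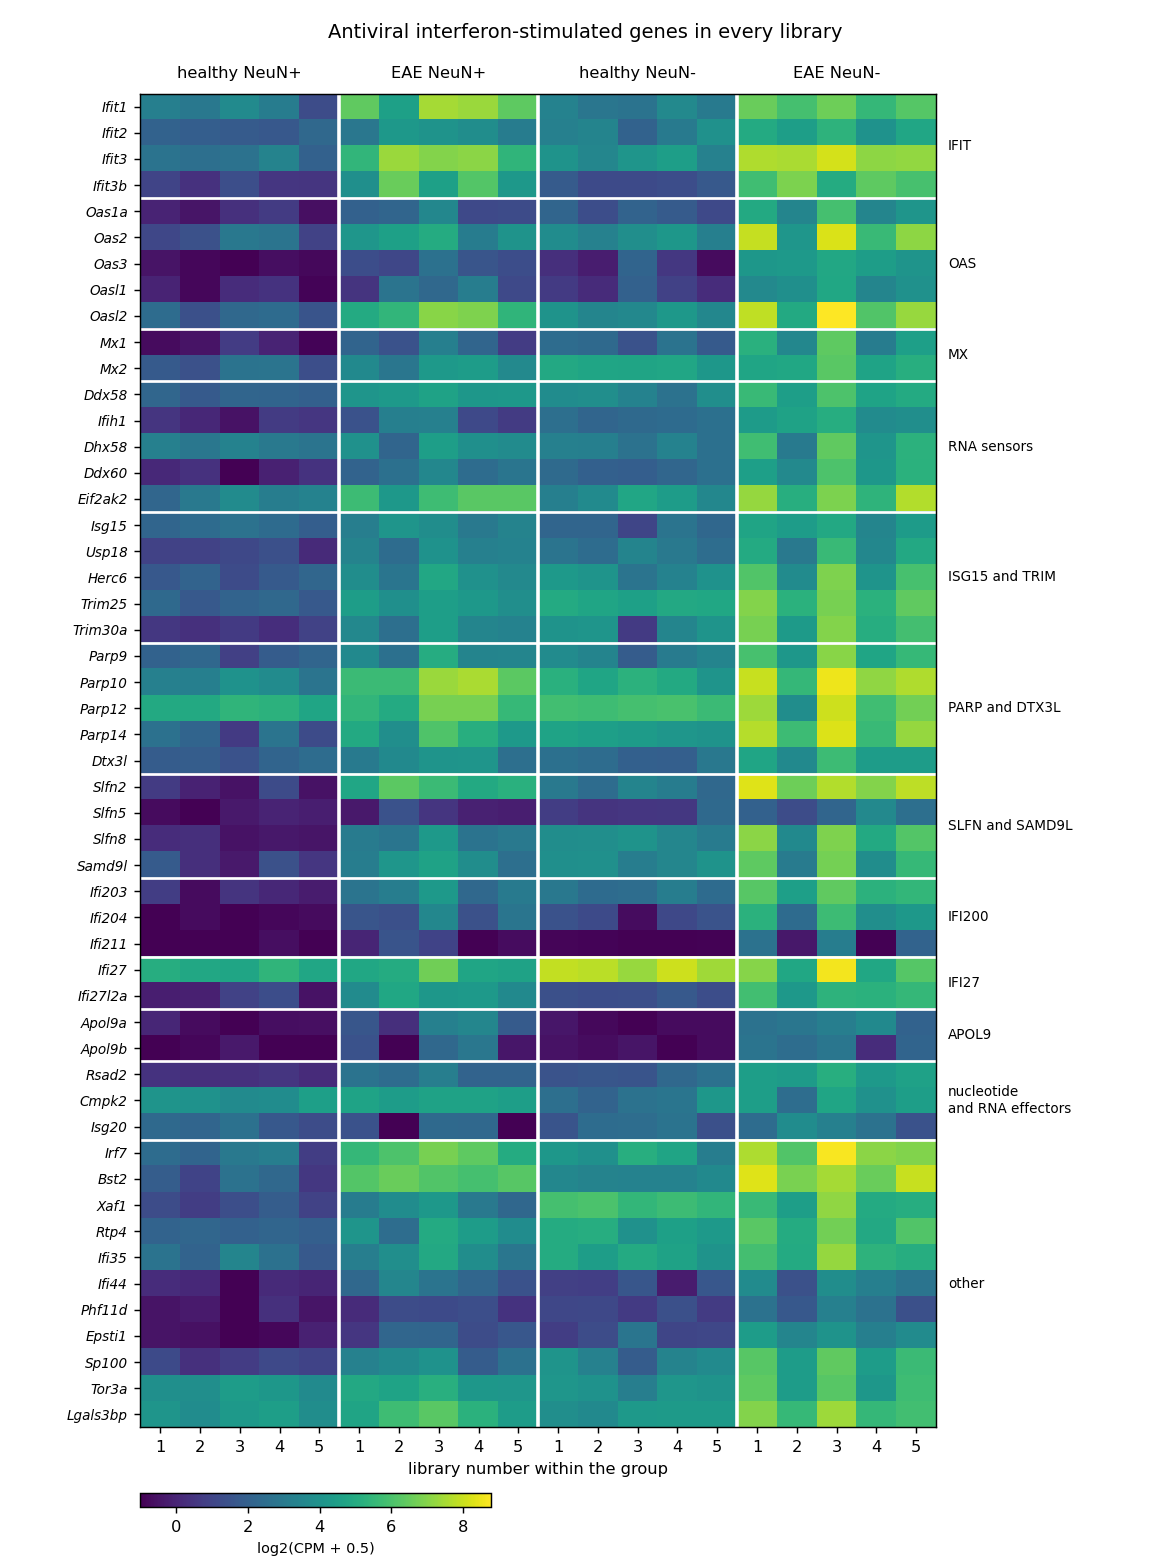
Level of each of the 51 genes (rows, by family) in each of the 20 libraries (columns, by group and number) as log2 of CPM plus 0.5. EAE columns are brighter than healthy ones in both sorts for most rows, Ifi27 is brightest in healthy NeuN-negative libraries and in EAE NeuN-negative library 3, and library 3 is the brightest EAE column for 31 rows in NeuN-positive and 39 in NeuN-negative nuclei.

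APOL9 proteins belong to the apolipoprotein L family and are induced by interferon. Apol9a was at 0.535, 0.103, 0, 0.14 and 0.154 CPM in healthy and 2.59, 0.746, 9.04, 10.9 and 3.03 in EAE NeuN-positive libraries, and at 0.25, 0.0809, 0, 0.112 and 0.108 CPM in healthy and 5.88, 6.77, 8.59, 11.9 and 3.71 in EAE NeuN-negative ones. It was near 0 in all healthy libraries of both sorts, and EAE libraries lay above them. Its change was 4.8 (SE 0.85, adjusted p = 0.00242) in NeuN-positive and, the largest fitted value of the 51 in that sort, 6.29 (SE 0.79, adjusted p = 3.98e-05) in NeuN-negative nuclei. Apol9b rose by 5.30 (SE 0.91, adjusted p = 0.000611) in NeuN-negative nuclei and was not tested in NeuN-positive ones, where it had 5 counts in healthy and 161 in EAE libraries. The genes share sequence (52.3% of the words of Apol9b occur in Apol9a), so their separate values are uncertain.

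Viperin (Rsad2) makes a chain-terminating nucleotide, CMPK2 is the nucleotide kinase beside it in the genome, and ISG20 is an RNA exonuclease. Rsad2 rose by 2.87 (SE 0.42, adjusted p = 0.000622) in NeuN-positive and 3.11 (SE 0.36, adjusted p = 1.56e-05) in NeuN-negative nuclei, with no overlap of libraries. Its neighbour Cmpk2, 12751 bases away, was at 16.5, 15.3, 12.3, 13.2 and 22.9 CPM in healthy and 25.1, 20.7, 24.5, 24.7 and 21.9 in EAE NeuN-positive libraries, which overlapped. Among NeuN-negative libraries it was at 5.45, 3.88, 5.94, 6.52 and 17.6 CPM in healthy and 22.2, 5.14, 26.9, 14.9 and 22 in EAE libraries. Library 5 was high among the healthy ones and library 2 low among the EAE ones, and the groups overlapped.

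The log2 fold change of Cmpk2 in NeuN-positive nuclei, 0.67 (SE 0.23, adjusted p = 0.0726), missed the threshold, which it passed without healthy library 5 at 0.79 (adjusted p = 0.0471). Cmpk2 rose by 1.53 (SE 0.43, adjusted p = 0.0158) in NeuN-negative nuclei, a call lost without healthy library 1, 2 or 4 or EAE library 5. Isg20 was not called in either sort, with 0 counts in EAE NeuN-positive libraries 2 and 5. Its log2 fold changes were -0.72 (SE 0.90, adjusted p = 0.627) in NeuN-positive, from 3.83 ± 1.52 to 2.27 ± 2.27 CPM, and 1.13 (SE 0.58, adjusted p = 0.152) in NeuN-negative nuclei, from 4.18 ± 1.77 to 7.08 ± 4.10 CPM (SD, n = 5).

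Of the 11 other genes 8 rose in NeuN-positive and 10 in NeuN-negative nuclei. Irf7, the factor that amplifies type I interferon transcription, was at 4.98, 4, 7.32, 8.64 and 1.2 CPM in healthy and 45.9, 66.2, 109, 81.6 and 32.2 in EAE NeuN-positive libraries, and at 17.8, 14.8, 34.6, 26 and 8.38 CPM in healthy and 193, 69.3, 419, 135 and 121 in EAE NeuN-negative ones. Number 3 was highest in EAE in both sorts, and no groups overlapped within a sort. The rise of Irf7 was 3.77 (SE 0.50, adjusted p = 0.000298) and 3.39 (SE 0.49, adjusted p = 0.000146). The gene overlaps Phrf1 on the opposite strand, and the reads of the pair cannot be told apart where counting ignores strand.

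Bst2, the tether that holds budding virus at the cell surface, was at 3.16, 1.45, 5.94, 4.42 and 1 CPM in healthy and 71, 92.6, 69.7, 59.6 and 76.4 in EAE NeuN-positive libraries. It varied by only 1.55-fold over these EAE libraries, against a median range of 3.99-fold over the 45 genes with at least 10 counts in each of them. The NeuN-negative level went from 11, 10, 9.57, 9.55 and 12 CPM to 321, 114, 179, 92.7 and 254. The rise was 4.67 (SE 0.49, adjusted p = 4.83e-05) in NeuN-positive and 4.48 (SE 0.36, adjusted p = 1.08e-06) in NeuN-negative nuclei. Per kilobase of exon Bst2 was the most abundant of the 51 genes in both EAE groups, at 81.8 and 213 CPM per kilobase, followed by Ifit3 (57.6) and Ifit1 (39.7) in NeuN-positive and by Slfn2 (117) and Ifit3 (111) in NeuN-negative nuclei. In NeuN-positive nuclei the gaps between Bst2 and Ifit3, Ifit3 and Ifit1, and Ifit1 and Ifi27l2a (38.5) were smaller than the spread over libraries. The same held in NeuN-negative nuclei for the gaps between Bst2 and Slfn2 and between Slfn2 and Ifit3, so these orders are uncertain.

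Xaf1, a pro-apoptotic factor, was the only one of the 51 genes whose EAE effect was called different between the sorts. It was at 1.93, 1.21, 2.08, 3.23 and 1.39 CPM in healthy and 8.21, 13.1, 18.1, 7.19 and 4.34 in EAE NeuN-positive libraries, which did not overlap. Among NeuN-negative libraries it was at 59.7, 65.1, 44.1, 52.1 and 43.7 CPM in healthy and 49.9, 21.7, 144, 31 and 34.1 in EAE libraries, where 3 EAE libraries lay below, 1 within and 1 above the healthy range. The log2 fold change was 2.47 (SE 0.45, adjusted p = 0.0033) and 0.31 (SE 0.38, adjusted p = 0.558), and the difference between them 2.28 (SE 0.59, adjusted p = 0.037).

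Over all 20444 genes tested for a difference between the sorts, 1.74% were called higher in NeuN-positive than in NeuN-negative nuclei and 0.822% lower. Among the 51 genes 1 was called higher and 0 lower, with a median of 0.31 against 0.15 over all genes. The Xaf1 call was lost in 18 of 28 alternatives, in which its value ran from 1.76 to 2.95, among them the omission of any of 16 single libraries. With the library number as a block, which pairs the sorts of a number, 4 were called higher (Xaf1, Mx2, Slfn8 and Ifi27) and 1 lower (Dhx58). Without EAE NeuN-negative library 3 the difference of Ifi27 was also called, at 2.05 (adjusted p = 0.0324). At the family level the median difference was highest for the SLFN genes with Samd9l (1.16) and lowest for the nucleotide and RNA effectors (-0.72).

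The remaining genes are 3 that missed the threshold in NeuN-positive nuclei and 5 that were called higher in both sorts. Ifi35 had 1.37 (SE 0.45, adjusted p = 0.0681), Phf11d 2.34 (SE 0.75, adjusted p = 0.0618) and Tor3a 0.74 (SE 0.28, adjusted p = 0.102) there. In NeuN-negative nuclei they rose by 1.54 (SE 0.39, adjusted p = 0.00875), 2.06 (SE 0.62, adjusted p = 0.0221) and 2.0 (SE 0.35, adjusted p = 0.000753), of which Phf11d lost its call without healthy library 1, 2 or 5 or EAE library 3. The transporter chaperone gene Rtp4, Ifi44, Epsti1, the nuclear body gene Sp100 and the secreted galectin-binding protein gene Lgals3bp rose by 1.46 (Lgals3bp) to 3.96 (Epsti1) in NeuN-positive and 1.62 (Rtp4) to 2.69 (Ifi44) in NeuN-negative nuclei. Lgals3bp lost its NeuN-positive call without healthy library 2, and Ifi35 (1.74, adjusted p = 0.0193) and Tor3a (0.9, adjusted p = 0.0418) gained one without healthy library 3.

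The sorts were then compared within each condition. In healthy mice 33 of 46 tested genes were lower in NeuN-positive than in NeuN-negative nuclei and 1 was higher, where 23.0% of all 17134 genes were called lower and 22.8% higher. The median log2 difference was -2.08 against -0.01 over all genes, and every NeuN-positive library lay below every NeuN-negative one for 30 of the 51 genes, against 15.7% of all genes tested. The largest differences were those of Slfn8 (-4.85, SE 0.45, adjusted p = 3.98e-06), Xaf1 (-4.81, SE 0.32, adjusted p = 4.83e-07) and Epsti1 (-3.83, SE 0.78, adjusted p = 0.00156). Dhx58 (-0.04), Lgals3bp (-0.06), Tor3a (0.08), Ifit1 (-0.15) and Isg15 (0.17) had differences under 0.2 in size and were not called, names chosen after their values were seen.

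Cmpk2 was the 1 gene called higher in healthy NeuN-positive nuclei, by 0.99 (SE 0.37, adjusted p = 0.0449), and its call was lost in 11 of 17 alternatives. Its neighbour Rsad2 was lower there, at -2.17 (SE 0.38, adjusted p = 0.000542). With the library number as a block, 4 further genes were called lower, namely Ifit3b (-0.98, adjusted p = 0.038), Eif2ak2 (-0.94, adjusted p = 0.00286), Ifi27l2a (-1.83, adjusted p = 0.00934) and Oasl1 (-2.08, adjusted p = 0.00921). Left-out libraries also gave Ifit3b (NeuN-positive 3), Eif2ak2 (NeuN-positive 3, NeuN-negative 1 or 5), Ifi27l2a (NeuN-positive 4) and Ifi44 (NeuN-positive 3 or NeuN-negative 4) a call as lower, and took that of Slfn5 (NeuN-negative 5).

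In EAE 40 of the 51 genes were lower in NeuN-positive nuclei and 0 higher, where 14.8% of all 17982 genes were called lower and 15.5% higher. The median was -1.99, with a range from -3.15 to 0.28, against -0.16 over all genes, and for 15 genes every NeuN-positive library lay below every NeuN-negative one, against 5.72% of all genes tested. The lowest were Oas3 (-3.15, SE 0.43, adjusted p = 6.51e-05), Slfn8 (-3.10, SE 0.49, adjusted p = 0.000211) and Mx1 (-3.09, SE 0.58, adjusted p = 0.000795). Oas3 was at 2, 1.64, 5.8, 2.5 and 1.97 CPM in the NeuN-positive and 17.8, 19, 28.8, 21.6 and 16.3 in the NeuN-negative EAE libraries, without overlap.

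Not called in EAE were 11 genes. They were Ifit1 (0.28, SE 0.41, adjusted p = 0.628), Cmpk2 (0.17, SE 0.34, adjusted p = 0.732), Apol9a (-0.80), Ifi44 (-0.80), Apol9b (-0.93), Parp12 (-0.95), Ifit3b (-0.96), Parp10 (-1.11), Eif2ak2 (-1.15), Isg20 (-1.97) and Ifi211 (-2.11). With the library number as a block Ifit3b (-1.16, adjusted p = 0.00923), Parp10 (-1.12, adjusted p = 0.0218) and Eif2ak2 (-1.10, adjusted p = 0.0189) were called lower. Of the 40 calls, 9 were lost when some single library was left out, those of Ifit3, Oasl2, Isg15, Dtx3l, Slfn5, Ifi27, Phf11d, Tor3a and Lgals3bp. Ifi27 was at -0.77 (adjusted p = 0.219) and Oasl2 at -0.89 (adjusted p = 0.178) without NeuN-negative library 3. Without NeuN-negative library 2 Eif2ak2, Parp10 and Parp12 were called lower, and Ifit3b without NeuN-positive library 2. By family the medians ran from -2.67 for OAS and -2.62 for SLFN with Samd9l to -1.06 for IFIT and -0.87 for APOL9.

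**Figure D4:**
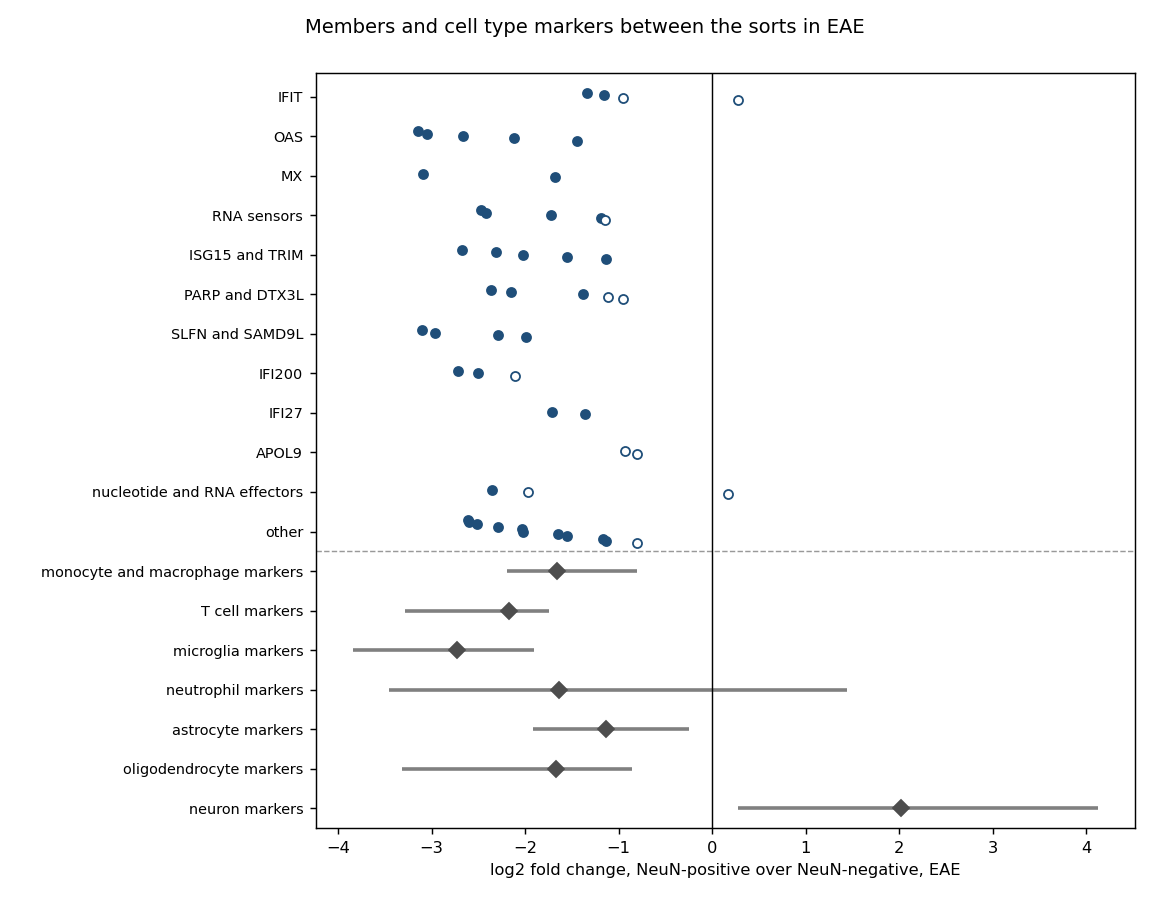
Log2 difference of NeuN-positive against NeuN-negative nuclei in EAE (x axis). Circles are the genes of each family, open where not called, and below the dashed line diamonds are the median and bars the range of each marker list. IFIT genes lie between -1.34 and 0.28 and OAS genes between -3.15 and -1.45, beside medians of -1.66 for monocyte and macrophage and -2.73 for microglia markers.

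On the same scale the median was -1.66 for 12 monocyte and macrophage markers (range -2.19 to -0.81), -2.17 for 12 T cell markers, -2.73 for 10 microglia markers, -1.64 for 9 neutrophil markers and 2.02 for 12 neuronal markers. Ifit1 and Cmpk2 lay within the ranges of the neutrophil markers (to 1.44) and B cell markers (to 0.99). Of these, 1 of 9 neutrophil and 1 of 6 B cell markers had a positive value, and the B cell median was -2.65. In healthy mice the neutrophil and B cell markers reached up to 2.73 and 2.17 on the same scale. Summed B cell markers were 246 to 361 CPM in healthy NeuN-positive and 65.2 to 93 in healthy NeuN-negative libraries. These upper ends are therefore not particular to EAE. Ifit1 also lay within the range of the neuronal markers (0.27 to 4.12). Oas3, Slfn8 and Mx1 lay within the ranges of the microglia markers (from -3.84) and T cell markers (from -3.29). They also lay within those of the oligodendrocyte (from -3.32), neutrophil (from -3.46) and B cell markers (from -3.85). The part of any of these cells was not tested.

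Over single libraries, the summed level of the 51 genes was 189 to 278 CPM in healthy NeuN-positive, 679 to 864 in healthy NeuN-negative, and in EAE 872, 1103, 1859, 1484 and 872 in NeuN-positive and 4281, 1473, 5879, 1788 and 3097 in NeuN-negative libraries 1 to 5. Number 3 was highest in both EAE sorts. Summed monocyte and macrophage markers in the same order were 447, 1882, 1232, 468 and 371 CPM in NeuN-positive and 2864, 1029, 2498, 691 and 1278 in NeuN-negative libraries. NeuN-positive library 4 was above library 2 in the 51 genes (1484 against 1103 CPM) and below it in these markers (468 against 1882 CPM). In NeuN-negative nuclei libraries 1, 3 and 5 were above libraries 2 and 4 in both sums. The relation of the 2 sums was not tested. In EAE NeuN-negative nuclei, libraries 2 and 4, those of high mitochondrial share, held the lowest value for 28 and 18 of the 51 genes. These libraries also had the lowest totals of their group, 3149209 and 4104125 counts. Library 2 further had the group's highest oligodendrocyte sum (94585 CPM) and lowest neuronal sum (907 CPM). The part of these library traits in the low values was not tested.

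The range over the EAE NeuN-negative libraries was given by family, with no test. The highest library exceeded the lowest by a median of 2.41-fold (2.06 to 3.63) for the 4 IFIT genes. Medians were 5.81-fold for OAS (1.77 to 17.2), 7.38-fold for PARP with Dtx3l (4.39 to 19.7) and 11-fold for SLFN with Samd9l (3.2 to 13.6). Single genes of other families, such as Oas3 (1.77) and Slfn2 (3.2), thus lay below or within the IFIT range. Over the 47 genes with at least 10 counts in each library the median was 4.64-fold. In EAE NeuN-positive libraries the IFIT median was 5.17-fold, and that of all 45 such genes 3.99-fold.

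**Figure D5:**
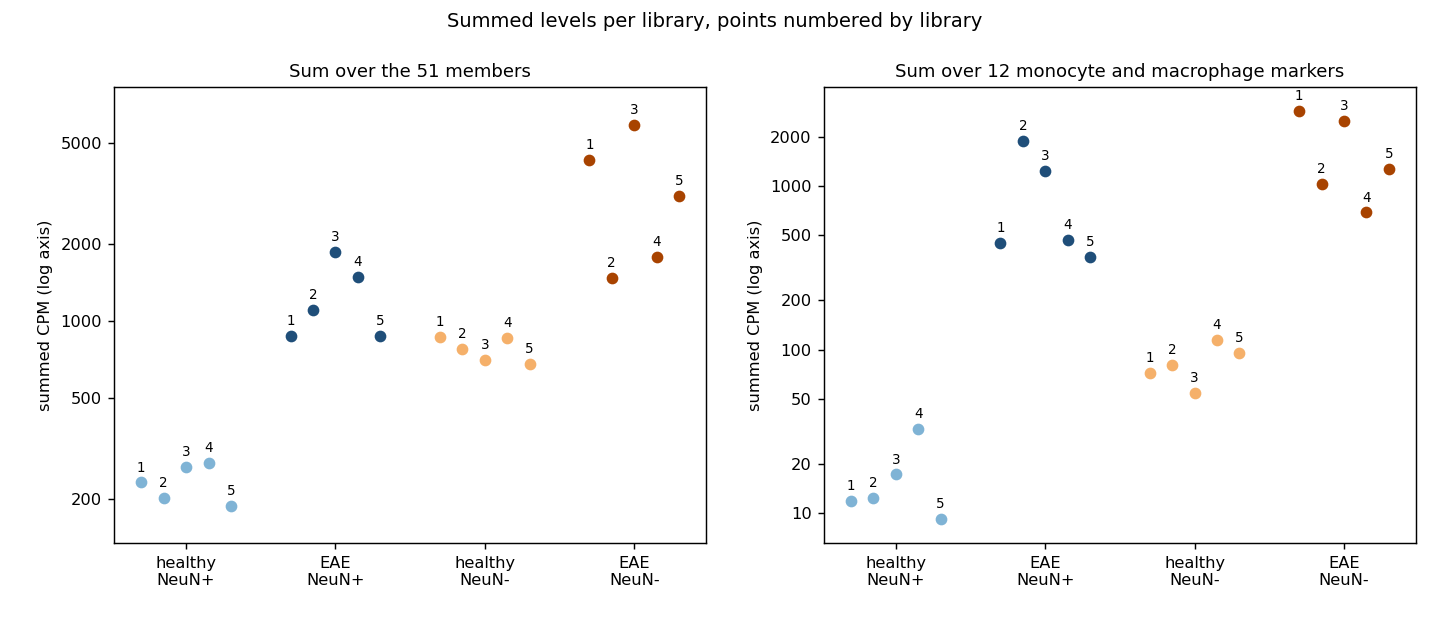
Summed CPM (log axis) of the 51 genes (left) and of 12 monocyte and macrophage markers (right) in each library, numbered within its group. EAE libraries lie above healthy ones of their sort in both panels. Library 3 is highest for the 51 genes in both EAE groups, at 1859 and 5879 CPM, while libraries 2 and 1 are highest for the markers, at 1882 and 2864.

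Members of the pathway upstream were measured in the same libraries, from lists chosen with earlier results of these data known. Of 18 interferon genes 0 passed the count filter in NeuN-positive nuclei and 1, Ifng, in NeuN-negative ones. Ifng, the T cell and natural killer cell cytokine, rose from 0.0846 ± 0.0903 to 4.63 ± 3.10 CPM in NeuN-negative nuclei (SD, n = 5; log2 fold change 6.22, SE 1.03, adjusted p = 0.00044), and was at 0.0944 ± 0.110 and 1.13 ± 1.34 CPM in NeuN-positive ones. Ifnb1 had 1, 6, 3 and 9 counts in healthy NeuN-positive, EAE NeuN-positive, healthy NeuN-negative and EAE NeuN-negative nuclei, too few to detect a difference at this depth.

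Of 9 receptor and kinase genes 3 were higher in NeuN-positive nuclei, and 3 were higher and 1 lower in NeuN-negative ones. Over all genes tested, 6.55% were higher in NeuN-positive nuclei, and 15.1% higher and 12.6% lower in NeuN-negative ones. The 1 lower among 9 is near that share, and the same shares stand beside the lists below. The listed genes with the smallest p were Il10rb, a subunit of several cytokine receptors (2.32 and 1.91), and Ifngr2, of the interferon gamma receptor (0.89 and 1.94). Lower in NeuN-negative nuclei was the kinase gene Jak2 (-1.24). Among the transcription factors of the pathway, Irf1 rose by 2.78 (SE 0.30, adjusted p = 6.06e-05) in NeuN-positive and 3.97 (SE 0.53, adjusted p = 6.63e-05) in NeuN-negative nuclei. Stat2, at 1.08 (SE 0.41, adjusted p = 0.102) and 1.47 (SE 0.55, adjusted p = 0.0558), was not called, Irf9 rose by 1.11 (SE 0.21, adjusted p = 0.00435) and 1.20 (SE 0.38, adjusted p = 0.0284), and Irf3 fell, with -1.55 (SE 0.36, adjusted p = 0.0146) and -1.59 (SE 0.45, adjusted p = 0.0163). Irf5 (3.20 and 1.86) and Irf8 (3.65 and 1.77) rose in both sorts, and Irf2 (-0.21 and 0.19) was called in neither.

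Of 6 negative regulators 3 were higher in each sort, led by the phosphatase gene Ptpn6 (2.99) and Socs3 (2.84) in NeuN-positive and by Socs1 (4.96) and Socs3 (3.44) in NeuN-negative nuclei, the SOCS genes encoding inhibitors of cytokine receptor signalling. Of 11 nucleic acid sensing genes 4 of 10 tested were higher in NeuN-positive and 6 of 11 in NeuN-negative nuclei. They were led by Zbp1, a sensor of Z-form nucleic acid (5.87 and 5.72), with Sting1 (3.81) in NeuN-positive and the kinase gene Ikbke (3.29) in NeuN-negative nuclei.

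Of 38 further interferon-stimulated genes 22 of 32 tested were higher in NeuN-positive and 27 of 35 in NeuN-negative nuclei, with 0 lower and medians of 2.66 and 2.45. Ifitm1, which encodes a membrane protein that blocks viral entry, had 3.99 and 3.48, Oas1b 4.39 in NeuN-positive and Slfn1 5.70 in NeuN-negative nuclei. The guanylate-binding proteins, GTPases that are strong targets of interferon gamma, were higher in 8 of 8 and 7 of 8, with medians of 4.74 and 4.79 and Gbp2b at 4.61 and 5.10, and the immunity-related GTPases in 5 of 5 and 6 of 6, with medians of 5.39 and 5.54. These medians stand beside 2.86 and 2.73 for the 51 antiviral genes, and the difference was not tested. Of the 16 genes with an ISRE match, 13 of 13 tested in NeuN-positive and 15 of 15 in NeuN-negative nuclei were called higher, with medians of 3.97 and 3.39. Of the 22 with a promoter entry and no match, 17 and 19 were, with medians of 2.48 and 2.36. Of the 13 with no promoter entry, 10 and 11 were, with medians of 2.46 and 2.93. The differences between these 3 sets were not tested.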

How the data were processed

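RNA of sorted nuclei was sequenced from poly(A)-enriched libraries, per the labels' protocols. The authors deposited 1 table of raw, unnormalized read counts for all libraries, with Ensembl gene identifiers. Per the submitters' processing notes, the tools include STAR 2.4 and DESeq2, and 2 builds, GRCm39 and mm10, are listed. The sources used here name neither counting tool nor annotation, and do not say whether strand was used. Positions and exon lengths come from GENCODE M21 (GRCm38), by gene identifier.

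Groups were taken from the titles. A comparison of 2 groups used only their libraries, and the difference between the sorts used all 20. The test was edgeR's robust quasi-likelihood test (edgeR 4.0.16, R 4.3.3) after TMM and the group-wise filterByExpr, adjusted by Benjamini-Hochberg over all genes tested and called under 0.05. CPM used TMM over the 20 libraries. The fits were tested on simulated data. The alternatives were DESeq2 1.42.0 size factors, its Wald test, no count filter, a filter of 1 CPM in 5 libraries, the library number as a block, a minimum change of 2-fold, omission of the libraries of high mitochondrial share (numbers 2 and 4 of EAE and 3 of healthy mice, both sorts), and omission of each library. Among 40 within-group pairs the smallest chi-square per gene was 11.1, and 0 were identical.

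Deviations from the group means of same-numbered libraries of both sorts correlated at 0.123 to 0.392 in EAE and 0.289 to 0.709 in healthy mice, all over the limit of 0.1. Libraries of unlike number correlated at -0.248 to 0.197 in EAE and -0.504 to 0.33 in healthy mice. These ranges overlap, some unlike pairs also passed the limit, and 17 of the 20 libraries correlated most with their own number. Only the alternative with the library number as a block read a number as a pair of sorts. The labels do not state this pairing and the correlations do not settle it. The main comparisons of the sorts, and that of the EAE effect between them, used no block. A number pairs no healthy with an EAE library.

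The rule for the 51 genes uses no measured value, but the genes, the other lists and the tests were chosen with earlier results of these data known. Values in every library are given for the gene of each family with the highest mean log2 CPM over the 20 libraries. The text also names the 3 largest and smallest EAE changes, genes not tested or not called, genes differing between the sorts and the 3 largest sort differences. Of each pathway list it names up to 2 genes each way with the smallest p. Ifit1, Bst2, Isg15, Xaf1 and Oas3 were given in every library because the text turns on them. Of the pathway's transcription factors, 1 result is not reported here.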

Additional observations from a re-analysis of the deposited data

Results flagged for a closer look

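In each of the 4 groups the highest and lowest library of each of the 51 genes were set against Dixon's 95% limit for 5 values. Of 204 group tests, 22 passed it, where chance flags about 1 in 20 (10.2 of 204). The genes share libraries and are not independent.

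EAE NeuN-positive library 3 was set apart for 6 genes, each time as the highest: Oas1a at 11 CPM (next 4.03), Oas3 at 5.8 (next 2.5), Parp9 at 32.7 (next 12.1), Slfn8 at 18.6 (next 7.99), Ifi203 at 19 (next 8.5) and Ifi27 at 102 (next 32.5). EAE NeuN-negative library 3 was set apart for 5, again as the highest: Oasl1 at 28 CPM (next 15.1), Mx2 at 78.5 (next 34.8), Ifi27 at 392 (next 129), Xaf1 at 144 (next 49.9) and Ifi35 at 150 (next 57.6). Ifi27 is the gene set apart in both sorts of that number.

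Healthy NeuN-negative library 3 was highest for Oas3 at 4 CPM (next 1.01), Oasl1 at 3.63 (next 1.35) and Epsti1 at 6.54 (next 1.9), and lowest for Tor3a at 8.6 (next 15.3). Healthy NeuN-negative library 5 was highest for Slfn5 at 4.62 CPM (next 1.2) and Cmpk2 at 17.6 (next 6.52), and library 4 for Ifi27l2a at 2.81 (next 2.15). In healthy NeuN-positive nuclei Apol9a was highest in library 1 at 0.535 CPM (next 0.154), Apol9b in library 3 at 0.297 (next 0.069) and Ifi211 in library 4 at 0.14 (next 0), and Ifi44 was lowest in library 3 at 0 (next 0.501). These last 4 rest on a few reads.

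The EAE effect of Xaf1 was called different between the sorts in the test of the difference itself, by 2.28 on the log2 scale (NeuN-positive minus NeuN-negative, edgeR's quasi-likelihood test, adjusted p = 0.037, n = 5 libraries a group). This was 1 call among the 51 genes, where 1.74% of all genes tested were called in that direction. The call was lost in most of the 28 alternatives. Without the libraries of high mitochondrial share the same test gave 1.76 (adjusted p = 0.175).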

How the results depend on the processing

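No direction of a called gene reversed under any alternative run. In EAE against healthy mice the counts of genes called higher stayed within 1.5 times those reported, from 29 (minimum change of 2-fold) to 46 (DESeq2's Wald test) in NeuN-positive and from 40 to 48 in NeuN-negative nuclei, apart from omitted libraries. With the replicate block they were 40 and 43, although a number ties no healthy to an EAE library: in NeuN-positive nuclei Ifih1 (2.29, adjusted p = 0.13) and Isg15 (1.35, adjusted p = 0.055) were no longer called and Parp12 (0.97, adjusted p = 0.0419) and Ifi35 (1.37, adjusted p = 0.0396) were, and in NeuN-negative nuclei Slfn5 (1.99, adjusted p = 0.0799) and Phf11d (1.95, adjusted p = 0.0738) were no longer called. The count of genes lower in EAE NeuN-negative nuclei was 0 to 1 with a library omitted and 1 without both EAE libraries of number 3, an alternative added after seeing the data, and the gene was Ifi27. In healthy mice the count of genes higher in NeuN-positive nuclei (Cmpk2) was 0 with no count filter, with a minimum change of 2-fold and without the libraries of high mitochondrial share, and 0 to 1 with a library omitted. In EAE the count lower in NeuN-positive nuclei was 20 with a minimum change of 2-fold and 34 without both libraries of number 3. For the difference between the sorts, the count higher was 4 with the replicate block, 0 with a minimum change of 2-fold, 0 without the libraries of high mitochondrial share and 0 to 2 with a library omitted. The count lower was 3 with DESeq2's Wald test (Dhx58, Isg15 and Tor3a), 1 with the replicate block and 2 without those libraries. The causes were not tested. With size factors of DESeq2 the median over all genes went from -0.164 to -0.266 in the sort comparison in EAE and from 0.145 to -0.107 in the difference between the sorts. Depth limits Ifi211, Apol9b, Slfn5 and the interferon genes, which were not tested in 1 or both EAE comparisons.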
